A study of Mus musculus with 28 samples.

Results

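The genes of the translation initiation and elongation factors were followed in the mouse subventricular zone (SVZ), the layer along the wall of the lateral ventricle where neural stem cells persist in the adult brain. Genes were taken by symbol, as every name of the cell table that begins with Eif and a digit from 1 to 6 or with Eef1 or Eef2, without pseudogenes. This gave 69 of 37974 genes. All mice were of the C57BL/6 strain and carried no transgene according to the descriptions. In the tissue arm, the dissected ventricle wall beside the striatum was profiled at 3 weeks (n = 3) and at 18 months (n = 3). In the cell arm, walls at 1 month and 24 months were digested with papain, cells were sorted by size and complexity, and 22 cells were sequenced one by one by Smart-seq2. The cells were Prom1+ (3 at 1 month, 3 at 24 months), Gfap+ (2 and 5) and Dlx2+/Dcx+ (5 and 4). The authors kept cells in which qPCR had found markers of neural stem and progenitor cells, among them the genes in these names, and gave the names to clusters of the cells' own transcriptomes. The descriptions tie no cell to an animal. Each subpopulation at each age therefore counts as 1 sample, and cell comparisons are given as differences without a test. The study gives its tissue numbers per group of mice, and the sample descriptions tie no tissue sample to an animal, so p-values there measure the spread between these samples.

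Translation begins when eIF2, loaded with GTP and the initiator tRNA, joins the small ribosomal subunit together with eIF1, eIF1A, eIF5 and the large eIF3 scaffold. The eIF4F complex, made of the cap-binding protein eIF4E, the scaffold eIF4G and the RNA helicase eIF4A, brings the mRNA, and eIF5B joins the large subunit. In elongation, eEF1A delivers aminoacyl-tRNAs, the eEF1B subunits recharge it with GTP, eEF2 moves the ribosome along the mRNA, and eIF5A helps at difficult peptide bonds. Global control acts on a few residues: kinases phosphorylate the alpha subunit of eIF2, which then blocks its exchange factor eIF2B, the kinase eEF2K phosphorylates eEF2, and binding proteins sequester eIF4E under the control of mTORC1. Protein synthesis in adult neural stem cells is known to be low in quiescence and to increase on activation.

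The coding sequence around 4 regulated residues shows what these genes encode at the points of control. Each stretch lies in 1 coding exon, is written 5′ to 3′ on the coding strand, comes from the GENCODE M21 transcripts of build GRCm38 and has the codon of the residue in capitals. The first pair holds the lysine that becomes hypusine in eIF5A, at chr11:69919154-69919180 (minus strand) for Eif5a and chr3:28782187-28782213 (plus strand) for its paralog Eif5a2. The others hold the serine of eIF2 alpha that its kinases phosphorylate, at chr12:78866668-78866694 (plus strand), and the threonine of eEF2 that eEF2K phosphorylates, at chr10:81177818-81177844 (plus strand).
Eif5a: tcgaagactggcAAGcatggccatgcc
Eif5a2: tccaagactgggAAGcatggtcatgcc
Eif2s1: cttagtgaattaTCCagacgacgtatc
Eef2: gagacgcgcttcACTgacactcgcaag

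The values are FPKM, reads scaled by transcript length and by the library's mapped reads, so that levels can be compared between genes; the cell and tissue tables were normalized separately. The tissue table lists 53 of the members. The other 16 were not analysed there (Eef1e1, Eef2, a second entry named Eef2k, Eif1a, Eif1ad, Eif1b, Eif3a, Eif3d, Eif3e, Eif3g, Eif3h, Eif3l, Eif4b, Eif4ebp1, Eif4ebp2 and Eif5). Some names are older ones: Eif2c1 to Eif2c4 are the Argonaute genes Ago1 to Ago4, which bind small RNAs and are no initiation factors, and Eif2c5 is annotated as a long non-coding RNA. The number of genes above 1 FPKM ranged from 4398 to 6626 per cell (the read totals of the cells were not used here), and was higher in Prom1+ (median 6315) than in Gfap+ (5415) and Dlx2+/Dcx+ cells (5304). Since cells were kept for these markers, their presence is no independent check: Prom1 was at 1.49 to 56.6 FPKM in the 6 Prom1+ cells, Gfap at 48.7 to 194 in the 7 Gfap+ cells and Dlx2 at 270 to 1916 in the 9 Dlx2+/Dcx+ cells. The Gfap+ cells also carried markers of another cell type: the summed FPKM of 7 oligodendrocyte markers (such as Mbp, Mag and Mog) was 19340.0 to 41101 in them, against 3.41 to 344 in the other 15 cells, while that of 6 astrocyte markers, Gfap among them, was 187 to 653 in Gfap+, 95.2 to 583 in Prom1+ and 0 to 579 in Dlx2+/Dcx+ cells. The authors themselves place these cells in the oligodendrocyte lineage and not among astrocytes. The name Gfap+ is kept below as their label.

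Translation factor transcripts made up a small part of each cell's signal. Their summed FPKM was 0.368 to 1.02% of the FPKM of all genes in a cell. The share had a median of 0.473% in Gfap+ cells (0.368 to 0.573%), 0.660% in Prom1+ cells (0.513 to 1.02%) and 0.728% in Dlx2+/Dcx+ cells (0.609 to 0.875%). The Gfap+ and Dlx2+/Dcx+ ranges did not overlap, but the FPKM of all genes also summed to more in Gfap+ cells (median 1558130.0) than in Dlx2+/Dcx+ cells (1014290.0), and the members' own sums overlapped (5803 to 8689 and 5338 to 8680). The part of this difference in the total was not tested. Between 38 and 53 of the 69 members lay above 1 FPKM in a cell, with medians of 48.5 in Prom1+, 40 in Gfap+ and 43 in Dlx2+/Dcx+ cells.

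**Figure D1:**
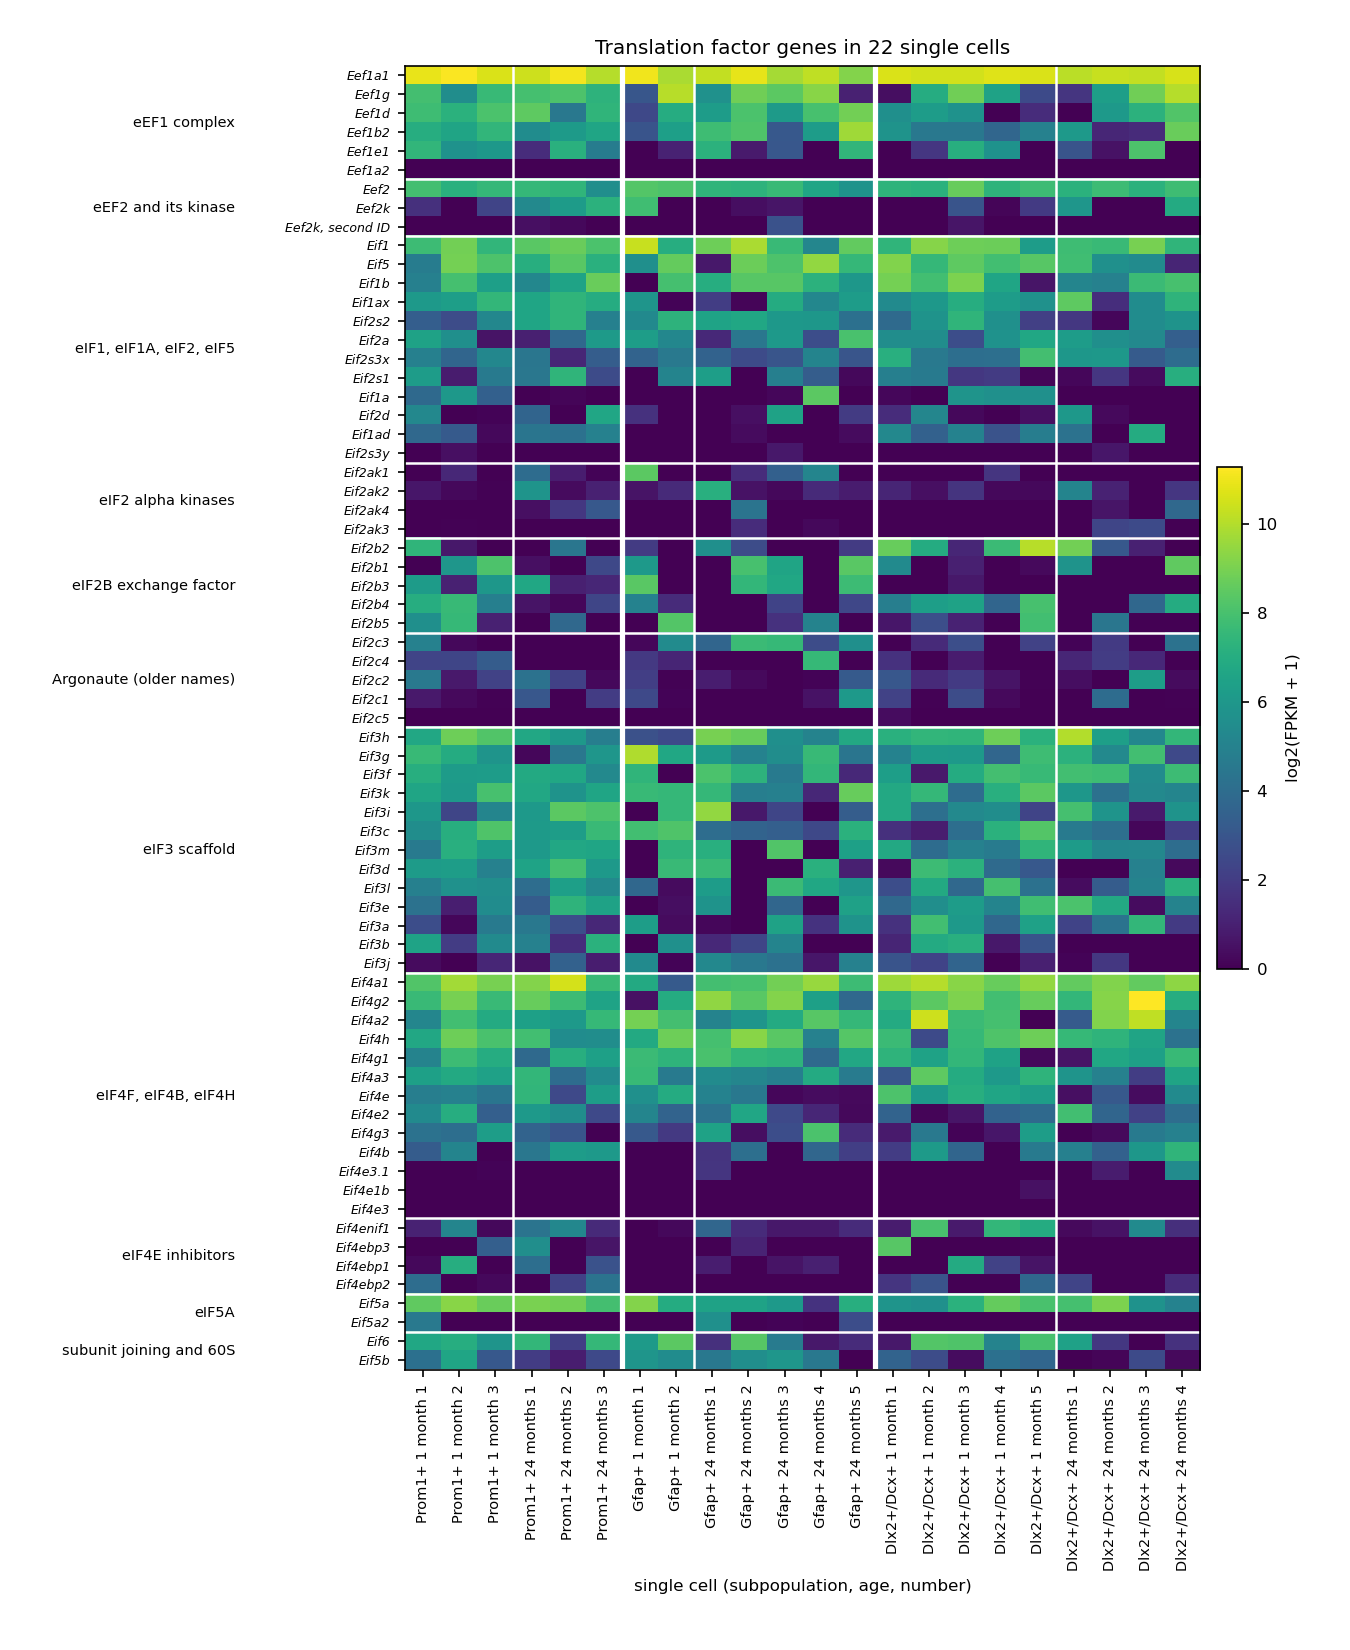
Level of each of the 69 genes (rows, grouped by role) in each of the 22 cells (columns, grouped by subpopulation and age), as log2(FPKM + 1) from dark (0) to yellow. Eef1a1 forms an even bright row across all cells, Eef1a2 an even dark one, and most other rows mix bright and dark cells within every group.

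Of the 69 members, 62 passed the filter of FPKM above 1 in at least 3 of the 22 cells, as did 11332 genes in all. The other 7 were Eef1a2, the second Eef2k entry, Eif2c5, Eif2s3y, Eif4e1b and both entries for Eif4e3. Those that passed were found in more cells than most genes: the median member lay above 1 FPKM in 17 cells and the median gene in 9. Above 1 FPKM in every cell were 11 members (17.7% of those that passed), against 4.81% of all genes that passed. They were Eef1a1, Eef1b2, Eef2, Eif1, Eif2s3x, Eif3h, Eif3k, Eif4a1, Eif4a3, Eif4h and Eif5a.

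Eef1a1 (chr9:78478449-78489151, minus strand), which encodes the form of eEF1A found in most tissues, was the most abundant member in every subpopulation and had the lowest SD of log2 level among the 62. It had 1041, 1405, 1607, 1933, 2179 and 2403 FPKM in the 6 Prom1+ cells, 587 to 2125 (median 1180.1) in the 7 Gfap+ cells and 1122 to 1709 (median 1483) in the 9 Dlx2+/Dcx+ cells. The highest and the lowest of all cells were 4.09-fold apart. On the log2(FPKM + 1) scale its SD between the 22 cells was 0.48, and only 3 of the 91 genes whose mean level was within 2-fold of its own had a lower SD. Eef1a1 alone gave 10.1 to 30.7% of the summed FPKM of the members in a cell.

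Eef2, the translocase of elongation, was even at a lower level. It had 47.0 to 239 FPKM (median 176) in Prom1+ cells, 54.5 to 306 (median 166) in Gfap+ cells and 147 to 408 (median 164) in Dlx2+/Dcx+ cells, an 8.68-fold range in all. Its SD was 0.70 on the log2 scale, below which lay 4 of the 1204 genes of like level. Such genes were 0.332% of those of like level for Eef2 and 3.30% for Eef1a1. The share was 1.33% for Eif2s3x, the X-linked gene of eIF2 gamma, and 3.54% for Eif4a3, the eIF4A paralog of the exon junction complex; it was above 5% for the others of the 62. As a group the factors were a little more even than genes of their level: over the 62 members the median share of like genes with a lower SD was 31.9%, and 42 of the 62 were under 50%.

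**Figure D2:**
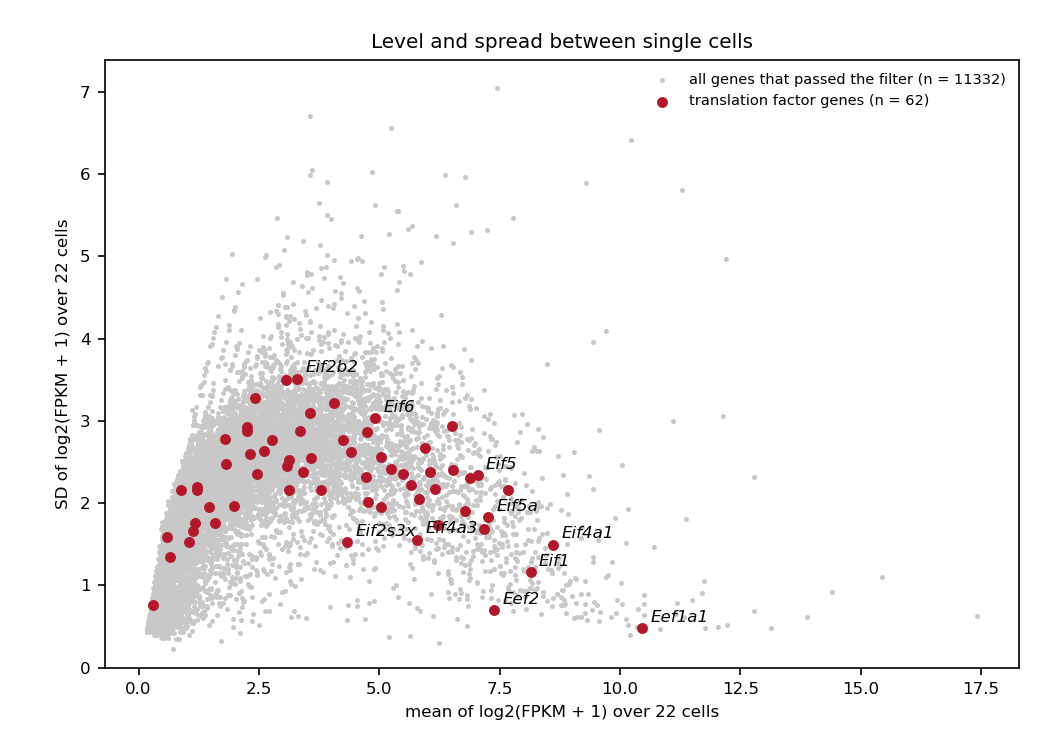
Mean (x axis) and SD (y axis) of log2(FPKM + 1) over the 22 cells for 11332 genes (grey) and the 62 translation factor genes among them (red). Eef1a1 and Eef2 lie at the lower edge of the cloud, whereas Eif2b2 lies among the more variable genes of its level, with 86.1% of them below it.

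Other factors present in every cell ranged more widely. Eif1, which guards start codon choice, had 35.2 to 1327 FPKM over the 22 cells (median 308), Eif4a1, the main helicase of eIF4F, 8.16 to 1502 (median 489), and Eif5a 2.19 to 627 (median 198). Their highest and lowest cells were between 37.7-fold and 286-fold apart. In the eEF1 complex, Eef1g ranged from 0.35 to 1099 FPKM and Eef1b2 from 1.29 to 815. Eif5, the GTPase activator of eIF2, ranged from 0.676 to 699 FPKM (median 232), and Eif4g2, a scaffold without the eIF4E-binding part, from 0.425 to 2523 (median 226). At the other end stood the 5 subunits of eIF2B, above 1 FPKM in 10 to 15 cells each although their means reached 38.8 to 117 FPKM. In them a few cells held most of the signal: Eif2b2 had 1097 FPKM in a Dlx2+/Dcx+ cell at 1 month and was listed at 0 in 7 cells.

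The regulators of initiation were detected in 3 to 13 cells each, where the median gene was in 9. Of the 4 eIF2 alpha kinases, Eif2ak3 (PERK, the sensor of endoplasmic reticulum stress) lay above 1 FPKM in 3 cells and never above 4.77, Eif2ak4 (GCN2, the amino acid sensor) in 4, Eif2ak1 (the haem-regulated kinase) in 7 and Eif2ak2 (PKR, the sensor of double-stranded RNA) in 10. Of the 3 eIF4E-binding proteins, Eif4ebp1 lay above 1 FPKM in 6 cells, Eif4ebp2 in 8 and Eif4ebp3 in 4, and the eIF4E transporter gene Eif4enif1 in 13. The highest value of an eIF4E-binding protein gene in a Gfap+ cell was 1.15 FPKM. By contrast eIF4E itself (Eif4e) lay above 1 FPKM in 17 cells and its cap-binding paralog Eif4e2 in 19. A value of 0 need not mean that a gene is off in these libraries, since Actb, which cells generally express, is listed at 0 in each of the 6 Prom1+ cells.

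Paralogs split unevenly. Eef1a2 (chr2:181147653-181157014, minus strand), the eEF1A form of mature neurons and muscle, was listed at 0 in all 22 cells, while Eef1a1 was high in each. Eif5a exceeded Eif5a2 in 22 of 22 cells, the latter reaching 50.6 FPKM at most. The X-linked Eif2s3x exceeded its Y-linked copy Eif2s3y in all 22 cells, the latter reaching 0.636 FPKM at most. In the same cells the Y-linked genes Ddx3y and Kdm5d were listed at 0, Uty reached at most 2.17 FPKM and Xist was at 13.8 to 145 FPKM. Female cells would show such values and carry no Eif2s3y, so the count for this pair does not measure a choice between copies. Eif4a1 exceeded Eif4a2 in 6 of 6 Prom1+, 5 of 7 Gfap+ and 6 of 9 Dlx2+/Dcx+ cells. The order of Eif1 and Eif1b was less clear, with Eif1 higher in 15 of 22 cells, as was that of Eif4e and Eif4e2, with Eif4e higher in 13. Eif4g1, the main eIF4G, exceeded Eif4g3 in 20 of 22 cells. The coding sequences of Eef1a1 and Eef1a2 are identical at 80.3% of aligned bases, those of Eif4a1 and Eif4a2 at 78.3%, of Eif1 and Eif1b at 81.1% and of Eif5a and Eif5a2 at 73.8%. Whether any reads were assigned to the wrong copy was not tested.

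Ageing was then compared within each subpopulation. A member was called where the mean log2(FPKM + 1) differed by more than 1 and no cell of 1 age overlapped those of the other. The share of all 11332 genes called by the same rule is given as the background. The median difference of the 62 members was -0.19 in Prom1+, 0.08 in Gfap+ and -0.34 in Dlx2+/Dcx+ cells, against 0, 0.16 and -0.14 over all genes. The value for Prom1+ cells was -0.03 under upper quartile scaling and -0.36 to -0.01 with 1 cell left out, and the median SD of a member between cells of 1 group was 1.55.

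In Dlx2+/Dcx+ cells, the neuroblast lineage, 2 of 62 members were lower at 24 months, where the background was 1.05%, and 0 were higher, where it was 0.529%. At a pseudocount of 1 the larger difference was that of Eif4e (chr3:138526179-138559696, plus strand), the cap-binding protein. It had 67.7, 78.1, 100, 134 and 284 FPKM in the 5 cells at 1 month and 0.308, 0.369, 7.82 and 40.8 in the 4 at 24 months. Every aged cell lay below every young one, a difference of -4.52 in log2(FPKM + 1). Eif3b, a core subunit of eIF3, had 0.658, 1.24, 6.71, 118 and 141 FPKM at 1 month and was listed at 0 in all 4 cells at 24 months. Leaving out a cell cannot make ages that are apart overlap, so only the size of the differences could change. It ran from -5.53 to -3.86 for Eif4e and from -4.54 to -2.93 for Eif3b. With a pseudocount of 0.1 the order of the 2 genes turned, at -6.68 for Eif3b. In these cells 44 members had a difference below 0 and 17 above it (27.4% above, against 40.8% of all genes), and the aged cells also had fewer genes above 1 FPKM of any kind (5081 to 5304 against 5278 to 6286). Marker lists moved unevenly in the same cells. The 8 markers of cycling cells had a median difference of -2.57, with Mki67 called lower, but Pcna was at 748 to 1322 FPKM in the aged cells against 0.914 to 1033 in the young ones, and Mcm2 at 0.591 to 111 against 0 to 2.04. Of the neural stem cell markers Slc1a3 was called lower, and the 4 astrocyte markers that passed the filter had a median of -2.53 with 0 called. The part of any of these in the members' differences was not tested.

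In Gfap+ cells, 3 members were higher at 24 months (background 2.56%) and 3 were lower (2.79%), with only 2 cells at 1 month to compare with. Eif4e was again lower: 49.7 and 124 FPKM at 1 month and 0.151, 0.207, 0.294, 22.4 and 30.8 at 24 months, a difference of -4.24. The eIF3 subunits went both ways. Eif3h had 4.78 and 6.04 FPKM at 1 month and 32.7 to 499 (median 111) at 24 months, and Eif3c had 237 and 288 at 1 month and 4.41 to 147 (median 10.9) at 24 months. Eif4a1 had 8.16 and 117 FPKM in the young cells and 213, 238, 260, 471 and 763 in the aged ones (difference 3.39, but 5.23 without the 1st and 1.54 without the 2nd young cell). The others were Eif4enif1, the eIF4E transporter (difference 1.47), and Eef2 (280 and 306 FPKM against 54.5 to 192, difference -1.25). The Eef2 call was lost under 4 of 12 settings, namely rescaling to equal totals or to the upper quartile, medians in place of means, and leaving out the 5th aged cell (difference -0.97), and that of Eif4enif1 was lost without the 1st aged cell (0.94). Of the marker lists, Mki67 and the neuroblast gene Dlx1 were called lower in the aged cells. The lists they belong to had median differences of -0.21 (8 cycling markers) and 0.20 (8 neuroblast markers). The 7 oligodendrocyte markers had a median difference of -0.53 with 0 called. The part of these markers was not tested.

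In Prom1+ cells, named for a surface marker of neural stem cells, 4 members were higher at 24 months (background 3.32%) and 5 were lower (3.68%). The gene of the eEF2 kinase, Eef2k, had 0, 1.94 and 4.03 FPKM at 1 month and 39.4, 71.9 and 154 at 24 months, a difference of 4.97. Its substrate Eef2 had 142, 186 and 239 FPKM at 1 month and 47.0, 168 and 184 at 24 months, ranges that overlap. Also higher were the eIF3 subunit Eif3i (4.16, 34.0 and 62.7 against 67.3, 286 and 350 FPKM; difference 3.08, and 2.01 without the 2nd young cell), Eif1ad (2.10, and 1.02 without the 3rd young cell), and the kinase gene Eif2ak4, listed at 0 in the 3 young cells and at 0.368, 2.58 and 7.72 FPKM in the aged ones. Lower were Eif2b4, the delta subunit of eIF2B (28.8, 131 and 197 against 0.156, 0.509 and 4.16 FPKM, difference -5.47), Eif1a (10.1, 13.4 and 63.7 against 0, 0 and 0.0979 FPKM, difference -4.40), Eif5b (difference -2.83, and -1.82 without the 2nd young cell), the scaffold gene Eif4g3 (-2.69, and -1.60 without the 3rd aged cell) and the Argonaute gene Eif2c4, listed at 0 in the aged cells and at 4.01 to 8.89 FPKM in the young ones. Markers moved in these cells too: the 8 neural stem cell markers had a median difference of -0.98, with Nr2e1 and Nes called lower, and of the other lists Top2a and Mog were called lower and Mcm2 higher. Their part in the members' differences was not tested.

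Eif4e did not follow the pattern of the other subpopulations in Prom1+ cells, where the ages overlapped (20.0, 27.4 and 30.1 FPKM at 1 month; 4.60, 77.1 and 174 at 24 months). Eif2b4 had 11.9 to 258 FPKM in young and 0 to 123 in aged Dlx2+/Dcx+ cells, which overlap, and Eef2k was listed at 0 in 4 of the 7 Gfap+ and in 4 of the 9 Dlx2+/Dcx+ cells. Whether age differences differ between subpopulations was not tested.

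**Figure D3:**
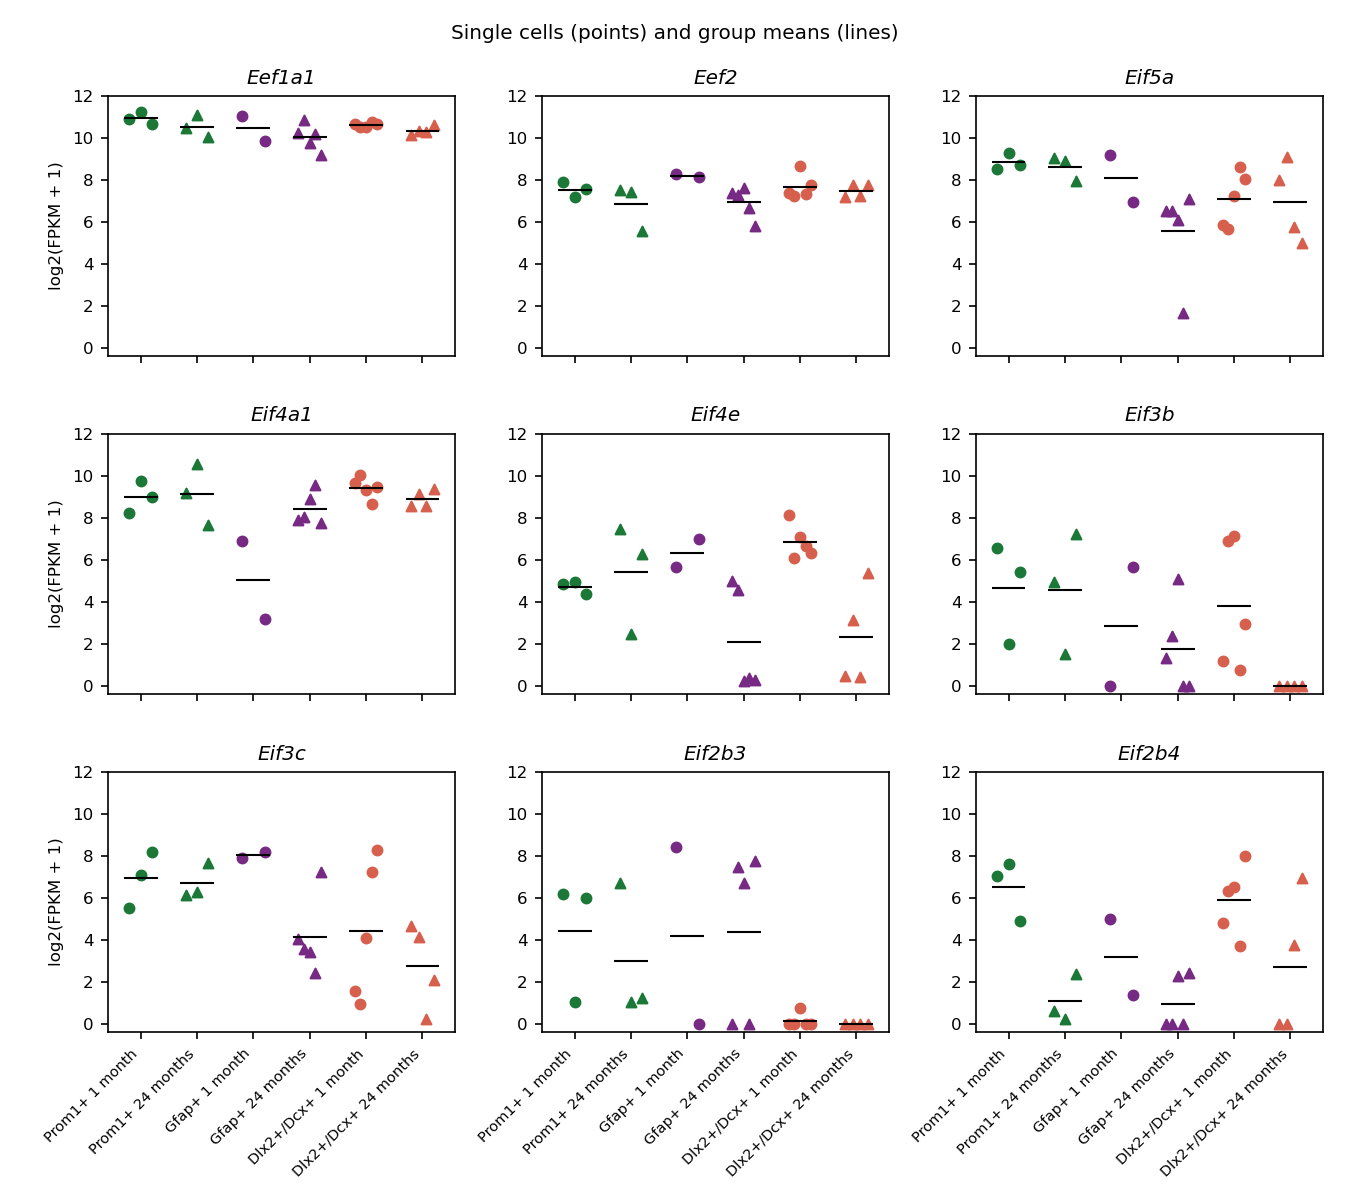
Level of 9 genes in each cell (points; circles at 1 month, triangles at 24 months) with the group mean (line), as log2(FPKM + 1), by subpopulation and age. Eef1a1 and Eef2 stay within a narrow band, Eif4e separates the ages in Gfap+ and Dlx2+/Dcx+ cells but not in Prom1+ cells, and Eif2b3 is near 0 in all Dlx2+/Dcx+ cells.

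Between subpopulations, with both ages weighted equally, 1 member stood apart by the same rule. The clusters were drawn from these same genes, so this is a description. Eif2b3 (chr4:117019402-117087306, plus strand), the gamma subunit of eIF2B, was listed at 0 in 8 of the 9 Dlx2+/Dcx+ cells and at 0.666 FPKM in the other, whereas the 6 Prom1+ cells had 1.01, 1.02, 1.33, 62.6, 71.7 and 105. The margin between the groups was thus narrow (0.666 against 1.01), and the background was 0.176% lower and 0.212% higher, where 0 members were found. In Gfap+ cells Eif2b3 was at 0 in 3 cells and at 104 to 337 FPKM in 4. Gfap+ against Prom1+ cells gave 0 members in either direction, where 2.52% of all genes were higher and 1.89% lower, and Gfap+ against Dlx2+/Dcx+ cells likewise gave 0, where 2.04% were higher and 1.01% lower.

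On the log2 scale the middle of the members was nevertheless lower outside the Prom1+ cells. Their median difference was -0.77 for Gfap+ minus Prom1+ and -0.51 for Dlx2+/Dcx+ minus Prom1+ (all genes -0.32 and -0.16), and -0.03 for Gfap+ minus Dlx2+/Dcx+ (all genes -0.13). Rescaling each cell to an equal total moved the comparison of Gfap+ and Prom1+ cells to -1.33 for members and -0.52 for all genes, and that of Gfap+ and Dlx2+/Dcx+ cells to -0.34 and -0.32. Upper quartile scaling gave -1.52 (all genes -0.62) for Gfap+ minus Prom1+, -0.78 (-0.34) for Dlx2+/Dcx+ minus Prom1+ and -0.31 (-0.28) for Gfap+ minus Dlx2+/Dcx+. The members' summed FPKM did not follow this, with medians of 6713 in Prom1+, 6748 in Gfap+ and 7169 in Dlx2+/Dcx+ cells. Prom1+ cells also had more genes of any kind above 1 FPKM (median 6315, against 5415 and 5304). The part of that in the log2 differences was not tested. The eIF3 subunits and the eIF4E inhibitors had the lowest medians of the groups of factors for Gfap+ minus Prom1+ (-1.68 and -1.91), and the eIF2 alpha kinases, eIF5B and eIF6 (0.15 and 0.43) and the Argonaute genes (0.23) lay above 0. In each of the 3 subpopulations Eef1a1, Eef1g, Eif1, Eif4a1, Eif4g2 and Eif5 were among the 10 members of highest mean, and all but Eif5, not analysed in the tissue, were also among the 10 highest there.

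In the tissue, 48 of the 53 listed members had at least 1 FPKM in at least 3 of the 6 samples and were tested by limma with 12287 genes. The 5 below were Eif2c5, Eif2s3y, Eif4e1b, Eif4ebp3 and the entry for Eif4e3 that GENCODE calls Gm20696. At an unadjusted p under 0.05 with a log2 fold change beyond 1, 0 of 48 members differed between 3 weeks and 18 months, where 3.90% of all genes did. At an unadjusted p under 0.05 alone, 8 members differed (background 24.3%). By a Benjamini-Hochberg adjusted p under 0.05, 1 was higher at 18 months (background 2.51%) and 0 were lower (2.42%). Log2 fold changes of the 48 members ran from -0.66 to 0.83 with a median of 0.11, against 0.09 for all genes.

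The 1 member higher by adjusted p was Eef1a2, the eEF1A gene at 0 in all the cells. It had 294, 295 and 309 FPKM at 3 weeks and 427, 444 and 444 at 18 months, so that the ages were well apart. Its log2 fold change was 0.55 (SE 0.080, limma adjusted p = 0.0246, n = 3 per age). Eef1a1 had 1166, 1242 and 1460.1 FPKM in the young tissue and 1228, 1239.8 and 1538 in the aged one, with overlapping ages (log2 fold change 0.05), and the ratio of Eef1a1 to Eef1a2 was 3.97 to 4.96 at 3 weeks and 2.77 to 3.61 at 18 months. The Eef1a2 call was lost in the fit without a filter on low values (limma adjusted p = 0.0706) and after quantile normalization (0.0558). It was also lost in 5 of the 6 fits with 1 sample left out, all but the fit without the 1st sample at 18 months (adjusted p 0.0818 to 0.134, at log2 fold changes of 0.54 to 0.57). Calls among all genes by adjusted p varied too over these 6 fits, from 94 to 613.

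The makeup of the tissue differed between the ages, and fewer cells of a type cannot be told apart from less RNA per cell. By adjusted p under 0.05, 4 of the 5 oligodendrocyte markers tested were lower at 18 months (background 2.42%). The summed FPKM of 6 such markers was 17153 to 18908 at 3 weeks and 2797 to 3444 at 18 months. Most of that sum was Mbp, at 14162 to 15906 against 1038 to 1688 FPKM, while the median log2 fold change of the 5 was -0.98 and Olig1 was listed at 0 in every sample. By the same adjusted p, 6 of the 7 tested markers of cycling cells were lower, as were 4 of 6 neuroblast markers. In direction alone, 0 of the oligodendrocyte markers, 0 of the cycling markers and 1 of the neuroblast markers lay above 0. Neuron markers, which bear on Eef1a2 most directly, had sums of 834 to 1156 FPKM in the young samples and 1003 to 1121 in the aged ones, with 0 of 6 called (median log2 fold change 0.31). Their part in the Eef1a2 result was not tested.

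**Figure D4:**
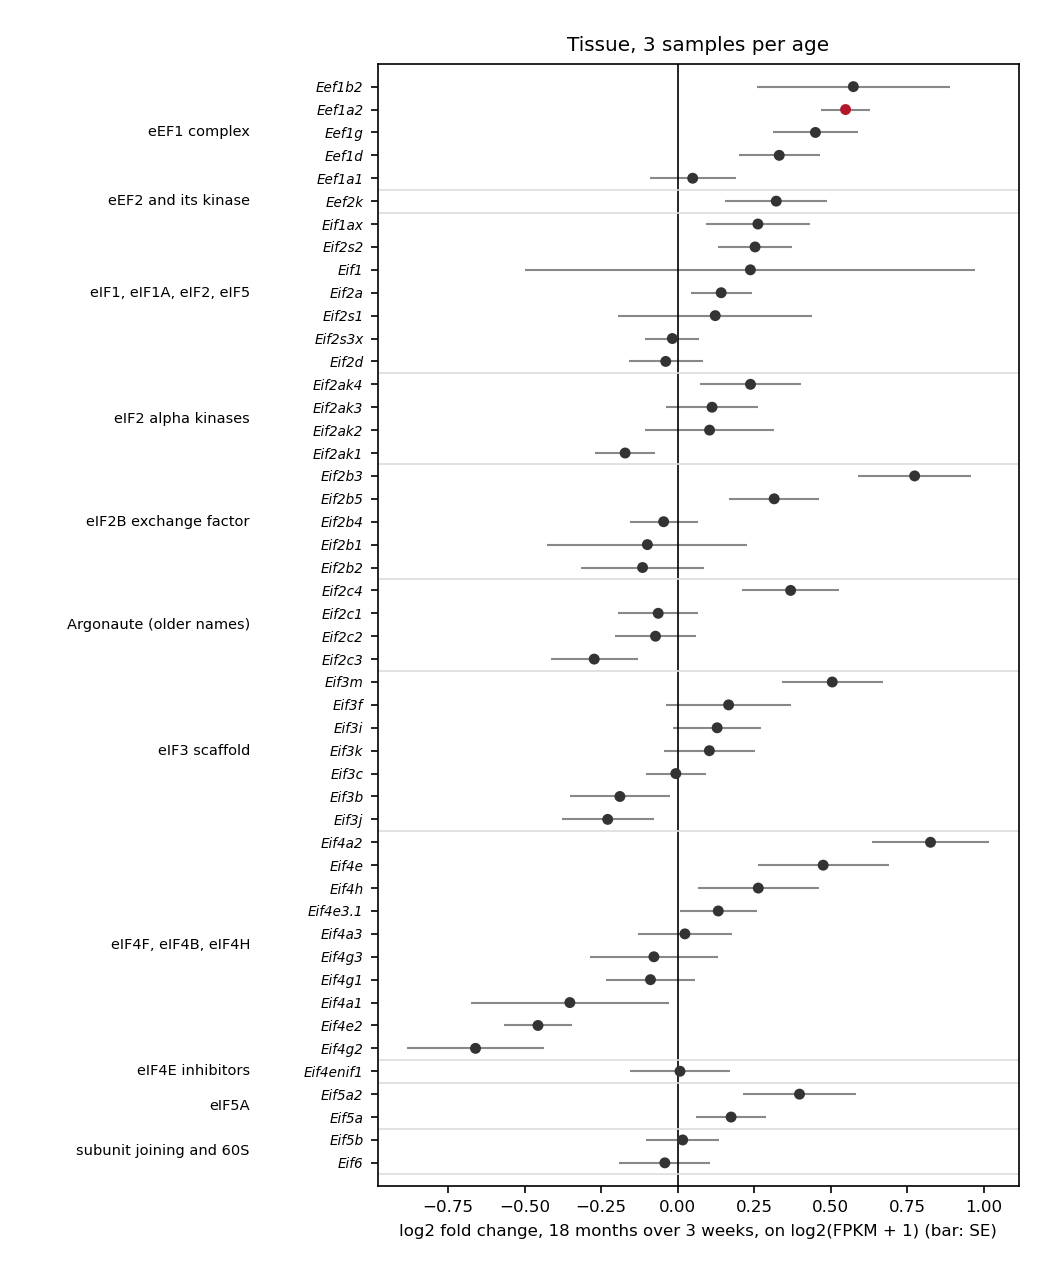
Log2 fold change from 3 weeks to 18 months, on the log2(FPKM + 1) scale, of the 48 tested members by role, with bars of 1 SE. Eef1a2 (red), the member with an adjusted p under 0.05, has a small SE, and Eif4a2, Eif2b3 and Eif4g2 lie farther from 0 with wider bars.

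The other members lay within what the adjusted test could not separate. The helicase gene Eif4a2 had 118, 124 and 152 FPKM at 3 weeks and 181, 256 and 270 at 18 months (log2 fold change 0.83, limma adjusted p = 0.0741), while Eif4a1 had 99.2, 171 and 186 against 80.8, 132 and 142 (-0.35). The last value rested on single samples: it was -0.10 without the 3rd sample at 18 months, and -0.63 and -0.18 without the 3rd and the 2nd at 3 weeks. Within a sample Eif4a1 was 0.80 to 1.58 times Eif4a2 at 3 weeks and 0.30 to 0.73 times at 18 months. Among the relatives of eIF4F subunits, Eif4g2 had 123, 135 and 158 FPKM against 63.1, 101 and 103 (-0.66, adjusted p = 0.151, and -0.43 without the 2nd sample at 18 months) and Eif4e2 had 22.4, 24.0 and 24.9 against 15.9, 16.5 and 18.8 (-0.46, 0.0809). The ages did not overlap for Eif4a2, Eif4g2 and Eif4e2, and did for Eif4a1. Eif4e, lower in aged Gfap+ and Dlx2+/Dcx+ cells, had 7.28, 9.51 and 12.8 FPKM at 3 weeks and 12.1, 14.4 and 15.0 at 18 months, a value of 0.48 with an adjusted p of 0.246, and of 0.29 without the 3rd sample at 3 weeks.

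In the eEF1 complex all 5 tested members had a log2 fold change above 0, as had 58.8% of all genes, and 1 of them, Eef1a2, passed the adjusted test. The median was 0.45. Its exchange factor genes Eef1g (98.6 to 100 against 114 to 159 FPKM), Eef1d (38.6 to 39.7 against 42.0 to 56.7) and Eef1b2 (45.3 to 57.0 against 47.8 to 101) had values of 0.45, 0.33 and 0.57 (limma adjusted p = 0.130, 0.199 and 0.325), the ages of the last overlapping, and Eef1b2 was at 0.92 without the 1st sample at 18 months. Eif2b3, near 0 in Dlx2+/Dcx+ cells, had 5.29, 5.94 and 8.61 FPKM at 3 weeks and 11.1, 12.1 and 12.2 at 18 months (0.77, limma adjusted p = 0.0783), whereas the 5 eIF2B subunits together had a median of -0.05. The eIF3 subunits (median 0.10 over 7), the eIF2 alpha kinases (0.11 over 4) and the Argonaute genes (-0.07 over 4) lay near the median of all genes. Among the 7 eIF3 subunits Eif3m was farthest from 0 (0.51, adjusted p = 0.145), and among the Argonaute genes Eif2c4 (0.37).

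All 3 samples at 18 months lay above all 3 at 3 weeks in 10 of the 48 members (background 20.9%) and below in 3 (12.2%). Eif1 was split by sample rather than by age, at 224 and 314 FPKM in the 2nd sample of each age and 63.9 to 84.0 in the other 4. Without the 1st sample at 18 months, 5 members were higher by adjusted p (Eef1a2, Eef1g, Eif3m, Eef1b2 and Eif4a2) in a fit that called 613 genes in all, against 605 with every sample, and Eif4a2 also passed the rule of unadjusted p and fold with a log2 fold change of 1.00.

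**Figure D5:**
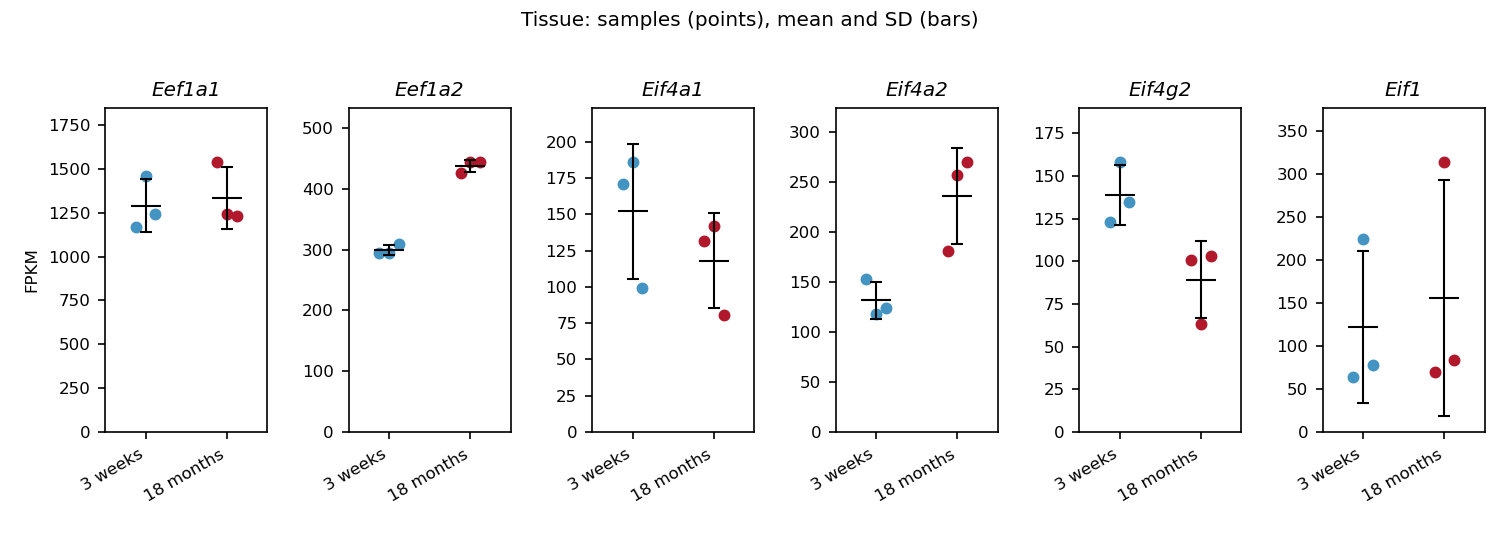
FPKM of 6 genes in the 3 tissue samples of each age (points) with the mean and SD (bars), each panel on its own axis from 0. The ages are apart for Eef1a2, Eif4a2 and Eif4g2 and overlap for Eef1a1, Eif4a1 and Eif1, the last with a high sample at each age.

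The genes that act beside the factors changed in few cases. In the tissue Pabpc1, the main poly(A)-binding protein, fell from 245 ± 19.2 to 132 ± 29.3 FPKM (SD, n = 3 per age; log2 fold change -0.91, limma adjusted p = 0.0474), the 1 call among 6 tested genes of that list. Tsc1, an inhibitor of mTORC1, rose from 5.09 ± 0.719 to 10.3 ± 1.86 FPKM (0.88, adjusted p = 0.0479), 1 of 11 tested in the mTORC1 list. Atf3, a target of the integrated stress response, rose from 1.05 ± 0.177 to 4.22 ± 0.850 FPKM (1.34, adjusted p = 0.0154), 1 of 9. Paip2b, an inhibitor of the poly(A)-binding protein, passed the rule of unadjusted p and fold (1.55) with an adjusted p of 0.180. Of the genes for termination and recycling (6 tested), for hypusine and diphthamide synthesis (9) and for mitochondrial translation (8), 0 passed either rule, beside 3.90% of all genes by unadjusted p and fold and, by adjusted p, 2.51% higher and 2.42% lower. Of 62 ribosomal protein genes, 51 had a value above 0 and 1 passed the adjusted test, with a median of 0.32; of all genes tested, 58.8% lay above 0.

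In the cells, 54 genes of the 6 pathway lists passed the filter, with these calls among them: 3 higher and 2 lower with age in Prom1+ cells (background 3.32% and 3.68%), 2 and 3 in Gfap+ cells (2.56% and 2.79%), 1 and 1 in Dlx2+/Dcx+ cells (0.529% and 1.05%), 1 and 1 for Gfap+ minus Prom1+ (2.52% and 1.89%), and 0 in the other 2 comparisons. The poly(A)-binding partners Paip2 and Paip2b were higher at 24 months in Prom1+ cells (differences 1.31 and 3.29). Paip2b had 0.262 to 1.22 FPKM in the young ones and 2.73 to 119 in the aged ones. Paip2 was also higher in aged Gfap+ cells (2.55). There the 2 young cells had 6.02 and 142 FPKM and the aged ones 153 to 244, so this difference rested on 1 young cell. Ppp1r15b, the constitutive subunit that brings a phosphatase to eIF2 alpha, had 0.161 to 1.60 FPKM in young and 2.98 to 43.2 in aged Prom1+ cells, and was listed at 0 in both young Gfap+ cells and at 1.33 to 103 FPKM in the aged ones. Pabpc1 stood apart between subpopulations, with 29.1 to 165 FPKM in Prom1+ and 0 to 14.3 in Gfap+ cells. Psat1, a serine synthesis gene among the stress response targets, had 277 to 2151 FPKM in Gfap+ cells and 0 to 146 in Prom1+ cells, and 24.5 to 452 in young against 0 to 1.37 in aged Dlx2+/Dcx+ cells. Dohh, which completes hypusine in eIF5A, was lower in aged Gfap+ cells (37.1 and 172 FPKM against 0 to 18.8), as were Tsc2 and Mlst8 of the mTORC1 list. Abce1, the ribosome recycling factor, and Wdr85, a diphthamide synthesis gene, were lower in aged Prom1+ cells (-2.57 and -4.95), and Nupr1 was higher in aged Dlx2+/Dcx+ cells at no more than 1.54 FPKM.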

How the data were processed

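RNA from 6 tissue samples and 22 Smart-seq2 cells was sequenced by the authors. They deposited 1 FPKM table for each arm; their processing notes name HISAT2, StringTie, featureCounts and build GRCm38. FPKM are not counts, so no count model was used, and the depth of a cell is not part of its table. In the tissue, steps between low FPKM values were within 0.02 of a whole step for 59.1 to 60.5% of low values, too few to recover reads.

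Tissue FPKM were tested as log2(FPKM + 1) by limma 3.58.1 (R 4.3.3; trend, two-sided, Benjamini-Hochberg over all 12287 genes with at least 1 FPKM in at least 3 samples). The scripts were first tested on simulated data. With 3 against 3 samples an exact permutation test could not go below p = 0.1. Cell values were compared as means of log2(FPKM + 1), without a test, using Python 3.11.15, numpy 2.4.6 and pandas 2.3.3. Authors' positions matched GRCm38 for 12.8% of genes, so coordinates were taken from GENCODE by identifier, which 68 of the 69 members had.

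Members and lists were chosen with earlier results of these data known. Named genes are the paralog sets, members called, the 10 lowest tissue p, the 10 highest means and called genes of the pathway lists. The evenness measure, coding windows, identity pairs, genes drawn in plots, added background rates and values searched for outlying cells were chosen after values had been seen. A search of promoters for pyrimidine tracts at the start site was run and is not reported, because the annotated starts looked imprecise. A marker gene of the oligodendrocyte list is not reported here and is left out of its sums. Alternatives were another pseudocount, filter, scaling, median, trend or block, and leaving out each sample.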

Additional observations from a re-analysis of the deposited data

Results flagged for a closer look

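Members above 1 FPKM in every cell, and the members' number and share, were searched for a cell far from the others of its group. This made 39 checks over the groups of 4 or more cells, and chance flags about 1 in 20. In 3 checks, not far from that rate, a cell stood apart in log2(FPKM + 1). Eif3h was at 8.81 in the 4th Dlx2+/Dcx+ cell at 1 month (449 FPKM), with the others at 7.15 to 7.43. Eif4h, a cofactor of eIF4A, was at 2.55 in the 2nd Dlx2+/Dcx+ cell at 1 month (4.87 FPKM), with the others at 7.56 to 8.82. Eif5a was at 1.67 in the 4th Gfap+ cell at 24 months (2.19 FPKM), with the others at 6.08 to 7.07.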

How the results depend on the processing

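Of the main counts and medians, 308 values under alternatives stayed within the limits set and 28 moved. Leaving out 1 cell took the members' median across 0 for age in Gfap+ cells (-0.03 to 0.28) and for Gfap+ minus Dlx2+/Dcx+ (-0.12 to 0.10). With replicate numbers as a replicate block, 0 members were higher in the tissue by adjusted p (Eef1a2 0.203), as without a filter and after quantile normalization (0 each); same-numbered samples did not deviate together (correlations -0.096, -0.011 and -0.098), so the numbers were not taken as pairs. Leaving out 1 sample gave 0 to 5 members higher in the tissue and 0 to 1 by unadjusted p and fold, each highest without the 1st sample at 18 months. Of all genes, these fits called 94 to 613 by adjusted p and 409 to 567 by unadjusted p and fold. Leaving out 1 cell gave 5 to 7 higher and 7 to 9 lower with age in Prom1+ cells, whichever cell was left out, in fits that called 5.59 to 7.77% and 6.31 to 7.72% of all genes. In Gfap+ cells it gave 2 to 8 higher and 3 to 13 lower, highest without the 2nd cell at 1 month (6 and 8 without the 1st, and 7 lower without the 4th aged cell). With fewer cells the rule called more genes of any kind: 8.68% higher and 11.8% lower without the 2nd cell at 1 month, 5.42 and 12.1% without the 1st, and 3.74% lower without the 4th aged cell. In Dlx2+/Dcx+ cells it gave 2 to 4 lower, 4 without the 2nd or the 3rd cell at 1 month (1.89 and 1.57% of all genes). For Gfap+ minus Prom1+ it gave 0 to 1 lower, and for Gfap+ minus Dlx2+/Dcx+ 0 to 1 higher; TPM scaling and upper quartile scaling also gave 1 lower for Gfap+ minus Prom1+ (Eif1ad). Depth limits what a value of 0 in a cell can show.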
